A study of Ulmus pumila with 3 samples.

Results

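The root response of Siberian elm (Ulmus pumila) seedlings to a mild and short salt exposure is described here across microRNA (miRNA) families. A small RNA library of roots from seedlings given 50 mM NaCl for 6 h was set against a library of roots from seedlings kept without added salt. All seedlings were wild type and 30 days old, and each condition has 1 library. A further library of the series, from 200 mM NaCl for 24 h, entered no comparison. How many seedlings went into a library was not given in the sources used here, and miRNA tables hold no protein-coding marker against which the root label could be checked. A name was compared when it was listed in both libraries with at least 20 read counts in 1 of them. This rule kept 162 of the 307 names listed in the 2 libraries, out of 309 in the series.

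In plants, a miRNA of about the length printed below is cut from a hairpin precursor by DICER-LIKE1, loaded onto an ARGONAUTE protein, and guides the cutting or the translational block of transcripts that match it over nearly its whole length. Many families are conserved across land plants, each with a small group of targets, often transcription factors. In roots, miR399 and miR827 are known for phosphate supply, miR398 and miR408 for copper economy, and miR160, miR164, miR167 and miR393 for auxin signalling and branching.

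With 1 library per condition there is no replicate error and no test between conditions. Ratios are those of reads per 1000000 counts of all names (RPM), 50 mM over control. Each has an exact 95% interval that covers counting error only, and reads amplified by PCR do not stand for separate molecules. A name is called higher or lower when its ratio is at least 2 in either direction and its interval excludes 1. By this rule 3 of the 162 names were higher (1.85%) and 5 were lower (3.09%). Of these, miR399c reached 20 counts in the 50 mM library only. miR5072, miR3711, miR166p and miR156e reached it in the control library only. For these names the count minimum and the direction of the ratio are not independent. The same holds for every other compared name that reached 20 counts in 1 library only. The sequences of the 8 called names are shown first, as these names have the widest ratios among the compared ones. Sequences are read 5′ to 3′, with bases 2 to 8 (the seed) in capitals.
miR399c: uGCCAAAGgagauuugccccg
new-3-5p: aGGGCAUCucuucauuggcaag
new-21-5p: uCAUAGAUuaauagugccaau
miR5072: cGAUUCCCcagcggagucgcca
miR3711: uGGCGCUAgaaggagggccu
miR8175: gAUCCCCGgcaacggcgcca
miR166p: gGAAUGUUgucuggcucgggg
miR156e: uGACAGAAgagagugaguac
Names such as new-3-5p stand for miRNAs that the authors named as new in elm, with the number of the hairpin and the arm. None of the 8 shares its seed with another of the 8.

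The leading names of the families that stand most apart in their sums, or that hold many counts, are shown next in the same way, since the family ratios below rest mainly on them.
miR827a: uUAGAUGAccaucaacaaaca
miR393a: uUCCAAAGggaucgcauugau
miR529a: aGAAGAGAgagaguacagcuu
miR398a: uGUGUUCUcaggucgccccug
miR408a: uGCACUGCcucuucccuggcu
miR858a: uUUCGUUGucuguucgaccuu
miR319a: uUGGACUGaagggagcuccc
miR162a-3p: uCGAUAAAccucugcauccag
miR482: uUUCCAAUuccacccauuccua
The 162 compared names hold 85 seeds, and 25 of these seeds are shared by 2 or more names, 102 names in all. Nearly all shared seeds lie within 1 family. The exceptions join miR165 with miR166, miR156 with miR157, and miR159 with miR319, and new-2-3p shares the main seed of miR159, making 15 names with it.

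The counts of all names summed to 509280 in the control library and 449522 in the 50 mM library, and 269 names were listed in both. The 162 compared names held 99.9% of the counts of each library. Reads may have been counted under more than 1 name, also across strands: miR160a, which is complementary to miR160d over 21 nt, had the same 755 and 747 counts as miR160b. Names of near-equal counts and overlapping sequence may therefore repeat the same reads, which was not tested, and joining them left 194 names and 59.8% and 62.3% of the totals. Names of the same sequence can also differ in counts. new-39-5p has the sequence of miR167c, but 9 and 4 counts against 1298 and 882. A difference between names below is thus not always one between the printed sequences.

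Most of the root miRNA population stood close to its control level. The median ratio of the 162 names was 0.947, with quartiles of 0.813 and 1.14, and 96 names (59.3%) lay within 1.25-fold of control. The interval lay above 1 for 38 names and below 1 for 45, and it included 1 for 79. Names of low count spread furthest. Among the 48 names with at most 50 counts in the control library, ratios ran from 0.222 to 7.77. Those ends belong to miR5072 and miR399c, which each reached the count minimum in 1 library only. Among the 16 with over 5000 counts ratios ran from 0.586 to 1.26, and none was called. Of 28 numbered families with a compared name, 10 had a summed ratio whose interval lay above 1 and 7 below 1, while 11 intervals included 1. At a ratio of at least 1.5, 14 names were higher (8.64%) and 12 lower (7.41%).

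**Figure D1:**
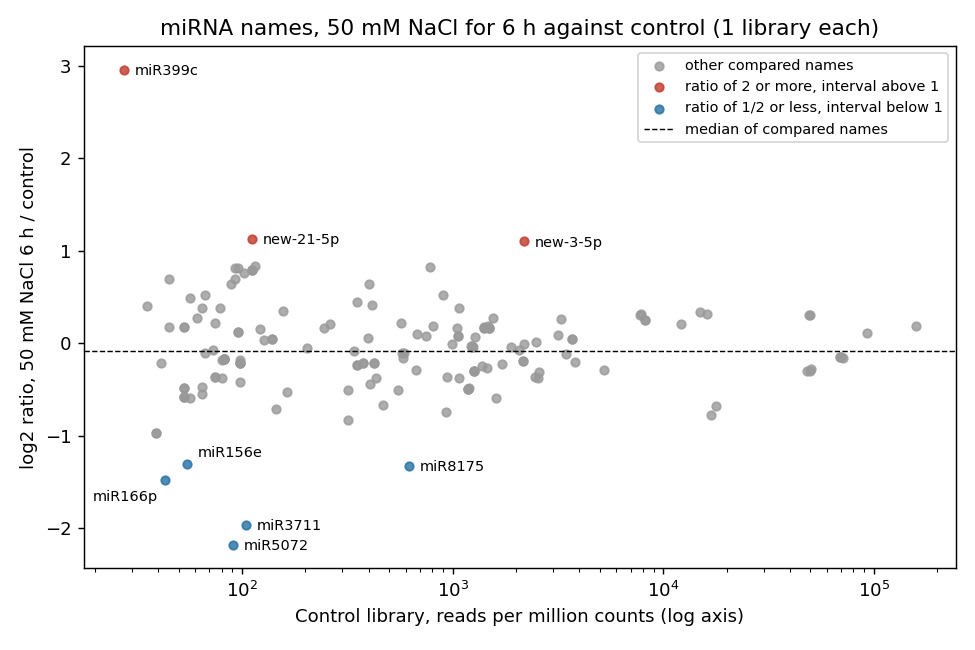
Each point is 1 of the 162 compared names, with its RPM in the control library on a log x axis and its log2 ratio of 50 mM over control on the y axis, 1 library each. Most points lie near the dashed median of −0.08, and the 3 called higher and 5 called lower are named.

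The phosphate-linked families stood higher in the salt library than in the control library. All 6 compared names of the nutrient list, which holds miR395, miR399, miR778, miR827 and miR2111, had intervals above 1, against 38 of all 162. Their median ratio was 1.76, beside 0.947 over all names. Past 1.5-fold, 5 of the 6 were higher, against 8.64% of all names, and past 2-fold 1 was, miR399c, against 1.85%. The compared names belong to miR399 and miR827 only.

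miR399 targets the PHO2 ubiquitin conjugase, which limits phosphate uptake and its transport to the shoot. miR399a, its most counted name, had 179 counts in the control library and 216 at 50 mM, a ratio of 1.37 (95% interval 1.12 to 1.68). miR399b had 49 and 76, a ratio of 1.76 (1.21 to 2.57). miR399c had 14 and 96, a ratio of 7.77 (4.41 to 14.7). The difference in miR399 between the libraries was thus uneven across its names. The names of 21 nt are shown with the bases that differ from miR399a in capitals, except miR399k, which had 1 and 0 counts.
miR399a: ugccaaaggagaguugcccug
miR399b: ugccaaaggagaAuugcccug
miR399c: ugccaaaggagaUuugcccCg
miR399d: ugccaaaggagaguugcccuU
miR399e: ugccaaaggagaguugcccuA
miR399g: ugccaaaggagaUuugccUCg
miR399h: ugccaaaggagaUuugcccCU
miR399j: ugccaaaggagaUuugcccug
miR399l: ugccaaaggagaUuugcccAg
miR399m: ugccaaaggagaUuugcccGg
Positions are counted from 1 at the 5′ end. miR399c carries G13U and U20C against miR399a, and miR399j carries G13U alone. Of the 6 names with U at position 13, 5 had more counts at 50 mM, but only miR399c reached the count minimum. miR399h had 2 and 10 counts, a ratio of 5.66 (1.21 to 53.2). miR399m had 1 and 12, a ratio of 13.6 (2.01 to 581). These are small counts with wide intervals. miR399j had 1 and 10 counts, miR399l 1 and 9, and miR399g, which also carries C19U, 2 and 1.

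Names with U at position 13 held 21 of the 277 counts of miR399 in the control library (7.58%) and 138 of 449 at 50 mM (30.7%). The other 7 names of the family summed to 256 and 311, a ratio of 1.38, while all 13 summed to a ratio of 1.84 (1.499 to 2.25). Those with G at position 13, miR399a among them, had a summed ratio of 1.28, and those with A, miR399b among them, of 1.73. Of the names with A, miR399i had 1 and 4 counts, a ratio of 4.53 (0.448 to 223). miR399f, also with A, had 5 and 4, a ratio of 0.906 (0.180 to 4.21). This grouping by base was chosen after the values were seen. The names with U differ from each other by few bases, so their counts may hold some of the same reads, which was not tested.

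miR827 acts on SPX-domain genes, which serve phosphate transport and sensing, and it stood higher across its names by a like factor. miR827a had 398 and 621 counts, a ratio of 1.77 (1.56 to 2.01). miR827b, which differs by A21U, had 47 and 73, a ratio of 1.76 (1.20 to 2.60), and miR827c, which differs by A21G, had 47 and 67, a ratio of 1.62 (1.10 to 2.40). The 3 ratios differ by less than their counting intervals. miR827d and miR827e were listed at 50 mM only, with 5 and 4 counts.

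**Figure D2:**
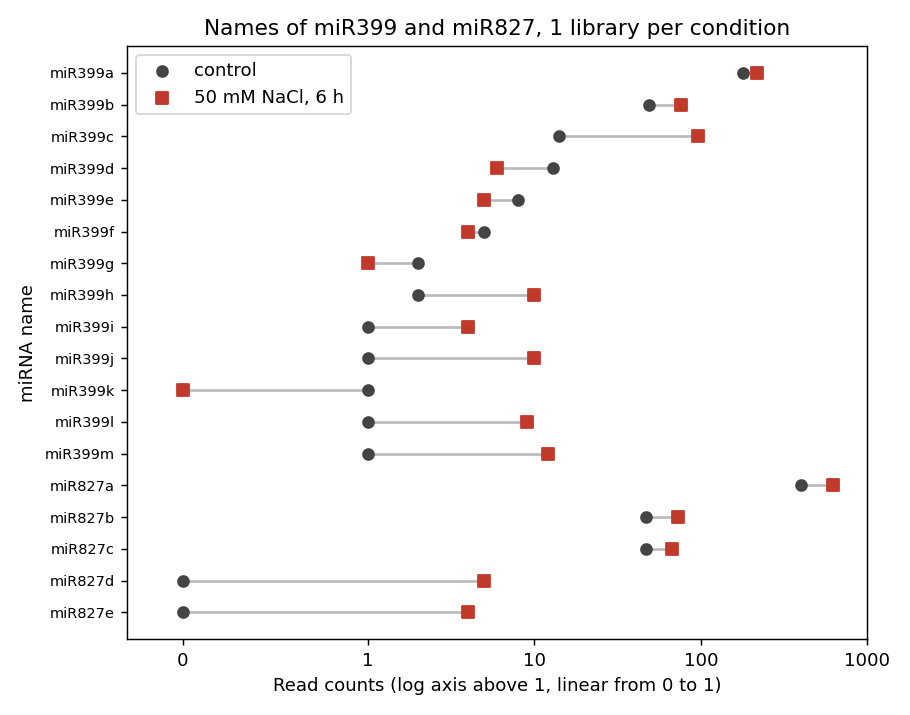
Read counts of every listed name of miR399 and miR827 in the control library (circles) and at 50 mM NaCl for 6 h (squares), 1 library each, with totals of 509280 and 449522; the x axis is logarithmic above 1 count. The widest gap among the names with over 20 counts belongs to miR399c, from 14 to 96, while miR399a moves from 179 to 216.

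The sulfate-linked miR395, which targets ATP sulfurylases and a sulfate transporter, was listed in the control library only. Its 8 names had 3 or 4 counts each there, and since they overlap in sequence these may be the same few reads. The kelch-repeat F-box regulator miR2111 had 0 and 1 counts. No name of miR778 was listed.

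Some new names resemble miR399 in sequence. new-3-5p was complementary to miR399a with 17 of 20 bases paired. new-3-3p, from the other arm of the same hairpin, matched miR399a on the same strand at 16 of 20 bases. new-18 was complementary to miR399f over 19 nt with 0 mismatches.
new-3-3p: cGCCAAGAagaguugcccugu
new-18: gUGCAAUUcuccuuuggcagc
new-3-5p had 1111 counts in the control library and 2108 at 50 mM, a ratio of 2.15 (1.998 to 2.31). new-3-3p had 1661 and 1757, a ratio of 1.198 (1.12 to 1.28). new-18 had 45 and 62, a ratio of 1.56 (1.05 to 2.34). All 3 had intervals above 1, and the arms of hairpin 3 differed from each other by more than their counting intervals. The likeness was searched after the values were known and gives these names no target.

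The copper-linked list, of miR397, miR398, miR408 and miR857, stood lower. Of its 12 compared names 10 had a ratio under 1, against 91 of all 162, and 7 had intervals below 1, against 45 of 162. The median ratio was 0.708, beside 0.947 over all names. Among the 10 names under 1, miR398d and miR398e reached the count minimum in the control library only. Their ratios are thus not independent of the minimum, and their intervals include 1. They have equal counts and overlapping sequence, so they may repeat the same reads. No name was past the 2-fold rule, against 3.09% of all names, and 1 of the 12 was lower past 1.5-fold, against 7.41%, so by size of ratio the list lay near the share of all names.

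miR398 targets copper/zinc superoxide dismutases, which detoxify superoxide. miR398a had 476 and 252 counts, a ratio of 0.600 (0.513 to 0.700). miR398b, which differs from it by G2A, the first base of the seed, had 342 and 248, a ratio of 0.822 (0.695 to 0.970). miR398c, which differs by G15A, had 50 and 39, a ratio of 0.884 and its interval includes 1 (0.566 to 1.37). The intervals of miR398a and miR398b overlap only at their edges, and the names were not tested against each other. miR398d and miR398e had 20 and 9 counts each, and miR398g was listed in the control library only, with 5 counts.

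miR408 targets plantacyanin, a small copper protein, and laccases. Its 5 compared names lay between 0.707 and 0.715, with 612 and 386 counts for miR408a, but 4 of them have near-equal counts and may repeat the same reads. Among them is miR408c, which is complementary to miR408a over 18 nt. miR408e, with 279 and 174 counts, had a ratio of 0.707 (0.581 to 0.857). A new name, new-10, was complementary to miR408b at 16 of 20 bases and had 820 and 482 counts, a ratio of 0.666 (0.594 to 0.746).
new-10: aCAGGGAAcagacagagcaug
miR397, which targets laccases of lignin formation, stood at its control level within counting error. miR397a had 49 and 47 counts, a ratio of 1.09 (0.713 to 1.66).

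**Figure D3:**
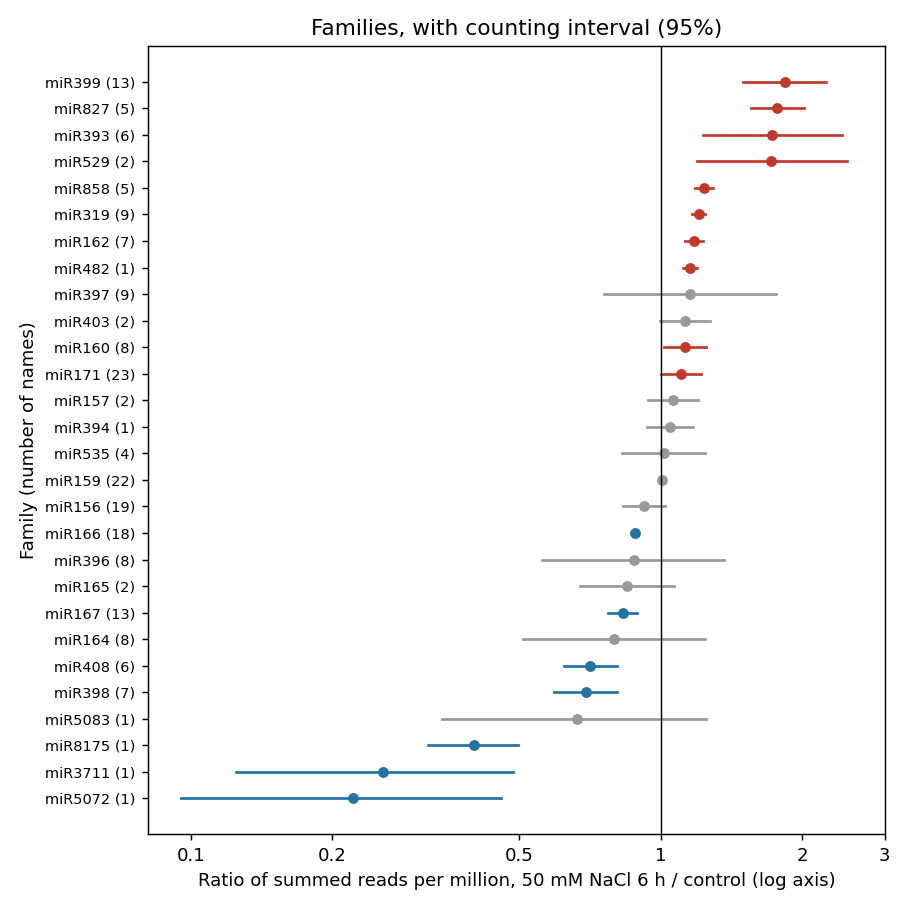
Ratio of summed RPM, 50 mM NaCl for 6 h over control, for the 28 numbered families with a compared name, on a log x axis; lines are 95% counting intervals as wide as those of each family's most counted name, in red above 1, blue below 1 and grey where they include 1. miR399 and miR827 stand at the top with 1.84 and 1.77, miR408 and miR398 lie lower, at 0.708 and 0.693, and miR8175, miR3711 and miR5072 lie lowest.

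The auxin-linked families parted. Of the 27 compared names of miR160, miR164, miR167 and miR393, 10 had a ratio above 1 and 17 below, against 71 and 91 of all names, with a median of 0.877, beside 0.947. None was past the 2-fold rule, against 4.94% of all names in either direction. Among the 17 names below 1, miR164d to miR164h reached the count minimum in the control library only. Their ratios are thus not independent of the minimum. They have near-equal counts and overlapping sequence, so they may repeat the same reads.

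miR393 targets the TIR1/AFB auxin receptors. miR393a had 59 counts in the control library and 93 at 50 mM, a ratio of 1.79 (1.28 to 2.52). miR393b, miR393c and miR393d each had 57 and 87, and may repeat the same reads. These 4 names made up all names of the list that were higher past 1.5-fold.

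miR160, which targets the repressing auxin response factors ARF10, ARF16 and ARF17, lay close to 1. miR160a to miR160c each had 755 and 747 counts, a ratio of 1.12 (1.01 to 1.24), and miR160e 289 and 298, a ratio of 1.17 (0.990 to 1.38). With near-equal names joined and the totals taken from the joined names, the family's interval included 1 (0.974 to 1.196). How much of this comes from the changed totals was not tested. The interval of miR160a also included 1 when the libraries were scaled by trimmed means (TMM factors, 0.977 to 1.199). The new name new-38-5p matches miR160b at 20 of 20 bases, yet it had 83 and 51 counts, a ratio of 0.696 (0.481 to 0.998).

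miR167 targets the activating factors ARF6 and ARF8. All 9 of its compared names were below 1, from 0.563 to 0.924. miR167a, with 1770 and 1444 counts, had a ratio of 0.924 (0.862 to 0.991). miR167c, 1 base shorter at the 3′ end, had 1298 and 882, a ratio of 0.770 (0.706 to 0.839), and the intervals do not overlap. The new name new-39-5p has the same sequence as miR167c, yet it had 9 and 4 counts. The gap between miR167a and miR167c need not be one between their sequences. miR167i, complementary to miR167a over 17 nt, stood lowest of the family, with 163 and 81 counts, a ratio of 0.563 (0.426 to 0.739). miR167h, also complementary, had 478 and 329, a ratio of 0.780 (0.676 to 0.899).
miR167a: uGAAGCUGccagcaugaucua
miR167c: uGAAGCUGccagcaugaucu
miR167i: uCAUGCUGgcagcuucaacuggu

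miR164, which targets NAC factors including NAC1 of lateral root formation, was counted on few reads. miR164a had 40 and 46 counts, a ratio of 1.30 (0.834 to 2.04). The other 7 names, which carry G7A and A17G against it, had 27 to 33 counts in the control library and 16 to 21 at 50 mM, with ratios of 0.671 to 0.721. Every interval of the family includes 1, so no difference was detectable at this depth.

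The growth transcription-factor families hold most of the counts. Of the 61 compared names 18 had a ratio above 1 and 43 below, against 71 and 91 of all names, with a median ratio of 0.902, beside 0.947. By size, 1 name was lower past 2-fold and 3 past 1.5-fold, against 3.09% and 7.41% of all names, and no name was higher. With 1 value per family the list's median log2 ratio was 0.0087, in place of −0.15, so its direction turned. In miR159, names that differ only in their last bases stood on both sides of 1.

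miR159 targets GAMYB-like MYB factors of growth and hormone response. Its 5 leading names share their first 19 bases, and the last bases that differ from miR159a are in capitals.
miR159a: uuuggauugaagggagcuccu
miR159b: uuuggauugaagggagcucUG
miR159c: uuuggauugaagggagcucUA
miR159d: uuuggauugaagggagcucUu
miR159e: uuuggauugaagggagcucUC
miR159a went from 158467 to 180783 RPM, a ratio of 1.14 (1.13 to 1.15). miR159b went from 93279 to 101010 RPM, a ratio of 1.08 (1.07 to 1.10). miR159c, miR159d and miR159e, which end in other bases, stood at ratios of 0.824 (0.809 to 0.840), 0.814 (0.799 to 0.830) and 0.813 (0.797 to 0.829). The first pair and the last 3 are separated by far more than counting error, while the family's sum stayed at 40.8% and 41.1% of all counts. The names of this second group have near-equal counts with each other.

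miR166, which targets the HD-ZIP III factors of vascular patterning, held 30.5% of the control counts and 26.9% at 50 mM. miR166b had 35530 and 28294 counts, a ratio of 0.902 (0.888 to 0.916). miR166a, miR166c and miR166d overlap it, had near-equal counts and stood at 0.896, 0.903 and 0.904. miR166e, which differs by C21U only, had 9035 and 4982, a ratio of 0.625 (0.603 to 0.647).
miR166b: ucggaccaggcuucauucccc
miR166e: ucggaccaggcuucauucccU
miR166k had a ratio of 0.628 (0.504 to 0.781), on 238 and 132 counts. The called name miR166p, with 22 and 7 counts, had a ratio of 0.360 (0.130 to 0.874) and carries A19G against miR166g. miR166g itself had 704 and 525 counts, a ratio of 0.845 (0.753 to 0.947), so the intervals of these names overlap. miR165a, which acts on the same factors, had 179 and 134 counts, a ratio of 0.848 (0.673 to 1.07).

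miR319, which targets TCP factors of leaf growth and cell division, also parted among its names. miR319a had 8194 and 9046 counts, a ratio of 1.25 (1.21 to 1.29), and miR319b 7659 and 8526, a ratio of 1.26 (1.22 to 1.30). miR319c, with 1275 and 1136, had a ratio of 1.01 (0.931 to 1.09). miR319e had 967 and 828, a ratio of 0.970 (0.883 to 1.07).

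miR171 targets GRAS factors of the SCARECROW-LIKE group. miR171a had 791 and 842 counts, a ratio of 1.21 (1.09 to 1.33), and miR171b to miR171d had 720 and 715 or 716, a ratio of 1.13. With near-equal names joined and the totals taken from the joined names, the family's interval included 1 (0.970 to 1.18). miR171e and miR171f, with 191 and 145 counts each, had a ratio of 0.860 and its interval includes 1 (0.688 to 1.07). miR394, which targets the F-box gene LCR, had 649 and 599 counts and a ratio of 1.05 (0.934 to 1.17). miR396, which targets growth-regulating factors, had 50 and 38 counts for miR396a, a ratio of 0.861 (0.549 to 1.34). Neither differed by more than counting error. miR169, which targets NF-YA factors, had at most 3 counts per name and library, and miR170 had 11 and 4 counts, so both stayed under the count minimum.

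**Figure D4:**
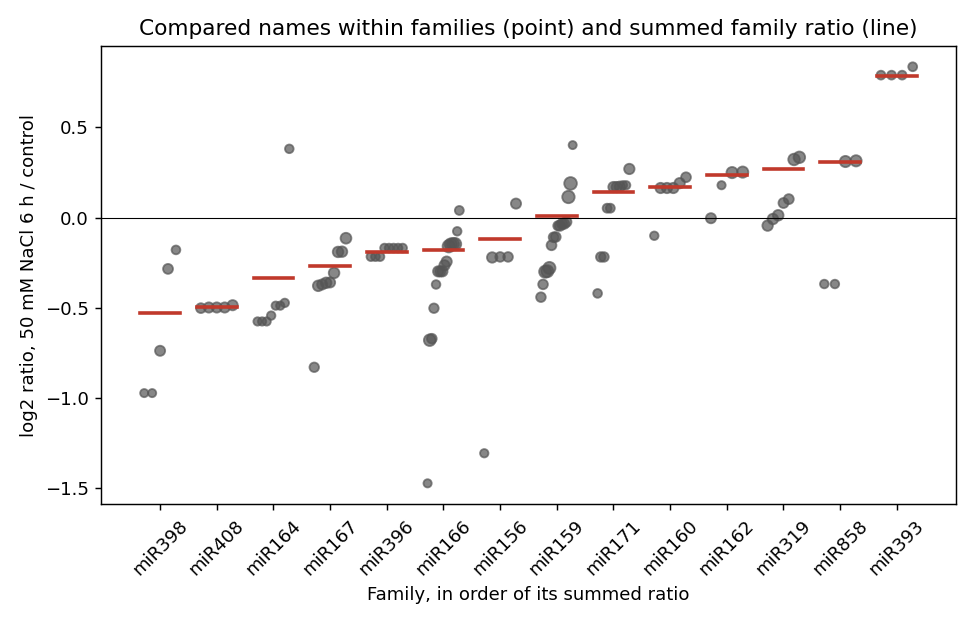
Each point is a compared name of a family with at least 4 such names, placed by its log2 ratio of 50 mM NaCl for 6 h over control, with larger points for more counts in the control library; the red line is the log2 ratio of the family's summed RPM. Names of miR159, miR166, miR319 and miR858 lie apart within their family, while those of miR408 and miR393 lie together.

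The phase-change families stood near control. Of the 8 compared names of miR156, miR157, miR529 and miR535, 4 had ratios above 1 and 4 below, and the median was 0.952, beside 0.947 over all names. miR156, which targets SPL factors that drive the juvenile to adult change, had miR156a at 879 and 666 counts, a ratio of 0.858 (0.775 to 0.950). miR156b and miR157a-5p each had 543 and 506, a ratio of 1.06 (0.933 to 1.19). Summed, miR156 had a ratio of 0.921 (0.832 to 1.02). With near-equal names joined and the totals taken from the joined names it had 0.879 (0.793 to 0.973). The called name miR156e carries C18U against miR156a and had 28 and 10 counts, a ratio of 0.405 (0.175 to 0.858), whose upper bound meets the ratio of miR156a. miR529a, also an SPL regulator, stood higher, with 52 and 78 counts and a ratio of 1.70 (1.18 to 2.46). miR535a had 203 and 187, a ratio of 1.04 (0.851 to 1.28). miR172, which targets AP2-like factors, stayed under the count minimum, with 16 and 7 counts for miR172a.

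The list of families that act on the small RNA machinery itself had a median ratio of 1.13, beside 0.947 over all names. Of 5 compared names 4 had ratios above 1, against 71 of all 162. Only 2, miR162a-3p and miR162b, had intervals above 1, against 38 of 162. miR162a-3p, which targets DCL1, the enzyme that cuts plant miRNAs, had 4180 and 4388 counts, a ratio of 1.19 (1.14 to 1.24). miR162b, with near-equal counts of 4162 and 4377, also stood at 1.19 and may repeat the same reads. miR162c had 504 and 444, a ratio of 0.998 (0.877 to 1.14), and miR162d 23 and 23, a ratio of 1.13 (0.607 to 2.11). miR403a, which targets AGO2, had 537 and 531, a ratio of 1.12 (0.992 to 1.27). No name of the AGO1 regulator miR168 was listed. miR482, a regulator of NBS-LRR resistance genes, had 6166 and 6289 counts, a ratio of 1.16 (1.12 to 1.20). It was the only compared name of the disease-resistance list, in which miR1507 had 0 and 1 counts.

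miR858, which targets R2R3-MYB factors of the flavonoid pathway, held names on both sides of 1. miR858a had 3990 and 4382 counts, a ratio of 1.24 (1.19 to 1.30). miR858b, which overlaps it, had 3964 and 4342. miR858c and miR858d had 38 and 26 counts each, a ratio of 0.775 and its interval includes 1 (0.452 to 1.31).

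Among the names numbered miR3711 and above, 4 were compared, and all 4 stood below 1. miR5072 had 46 counts in the control library and 9 at 50 mM, a ratio of 0.222 (0.0954 to 0.458). miR3711 had 53 and 12, a ratio of 0.257 (0.125 to 0.486). miR8175 had 317 and 112, a ratio of 0.400 (0.320 to 0.498). miR5083 had 29 and 17, a ratio of 0.664 and its interval includes 1 (0.342 to 1.25). Thus 3 of the 5 names called lower belong to numbers with no target list, and the other 2 have at most 10 counts at 50 mM. Whether these 4 names are fragments of other RNAs was not tested. Setting them together as a group was done with their values known.

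Counted by name, the new elm miRNAs stood slightly higher than the numbered ones. Of 34 compared new names 24 had ratios above 1 and 10 below, with a median ratio of 1.16, against 47 above and 81 below with a median of 0.898 among 128 numbered names. The numbered names weigh large families most, with 16 compared names each for miR159 and miR166, and names on both sides may repeat the same reads. By their sums, 10 of the 28 numbered families had intervals above 1 and 7 below 1. Whether the gap holds with 1 value per family was not tested. By the 2-fold rule 2 of the 34 were higher and 0 lower, against 1.85% and 3.09% of all names, and so few names say little about the lower side. The 24 new names unlike any numbered name in sequence had a median ratio of 1.17, and the 10 with a likeness (at least 80% identity over 16 nt or more) had 1.16. new-21-5p had 57 and 110 counts, a ratio of 2.19 (1.57 to 3.07). new-37, of 24 nt, had 212 and 249, a ratio of 1.33 (1.10 to 1.61). The lowest was new-36, with 8572 and 4431 counts, a ratio of 0.586 (0.565 to 0.607).
new-36: gGGGAUGUagcucagauggu
Whether new-36 is a fragment of another RNA was not tested either. It stood at 16832 RPM in the control library and 9857 at 50 mM. The largest positive difference in RPM was that of miR159a, 22316, followed by 11713 RPM for new-1-5p and 11689 RPM for new-15-3p.

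The names new-1-5p and new-15-3p are complementary over 19 nt with 0 mismatches and share near-equal counts, 25228 and 27533 for the first and 25137 and 27442 for the second, so their reads may be the same. Both had a ratio of 1.24. The opposite arms of these hairpins did not follow. new-1-3p had 1057 and 889 counts, a ratio of 0.953 (0.871 to 1.04). new-15-5p had 74 and 40, a ratio of 0.612 (0.406 to 0.912).

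Arms of the same hairpin share a precursor, so their shares were set side by side for the 9 new hairpins with both arms compared. In 5 of these the intervals of the 5p share did not overlap between the libraries. No further hairpin was apart among all 18, numbered ones included, that had at least 20 counts over both arms in 1 library. For hairpin 3 the 5p arm took 40.1% of both arms in the control library (38.2% to 41.9%) and 54.5% at 50 mM (53.0% to 56.1%). The more counted arm was 3p in the first library and 5p in the second. For hairpin 7 it took 80.4% (78.8% to 82.0%) and 74.8% (73.0% to 76.6%). For hairpin 8 it took 88.7% (87.2% to 90.1%) and 84.3% (82.5% to 85.9%), with new-8-3p at a ratio of 1.56 (1.30 to 1.88) and new-8-5p at 1.06 (0.990 to 1.14). For hairpin 1 the share was 96.0% and 96.9%, and for hairpin 15 it was 0.294% and 0.146%. The other 4 hairpins with both arms compared, 2, 5, 9 and 25, had overlapping shares. In hairpin 9 the 5p arm took 89.8% and 91.1%, with new-9-5p at 546 and 626 counts. In hairpin 5 it took 1.17% and 2.17%, with new-5-3p at 1940 and 1488 counts, a ratio of 0.869 (0.812 to 0.930). new-7-3p had 459 and 580 counts, a ratio of 1.43 (1.26 to 1.62). new-7-5p and new-25-3p are complementary over 19 nt and had near-equal counts, so the arms of hairpins 7 and 25, like those of 1 and 15, may not be counted apart.
new-8-3p: uGAGCCAAguuagggagagaug
new-8-5p: uCCCUCCCuaacuuguuucacc
new-7-3p: cUUCGAAAucaccucauuaca
new-7-5p: uAAUGAGGagauuucgaagga

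**Figure D5:**
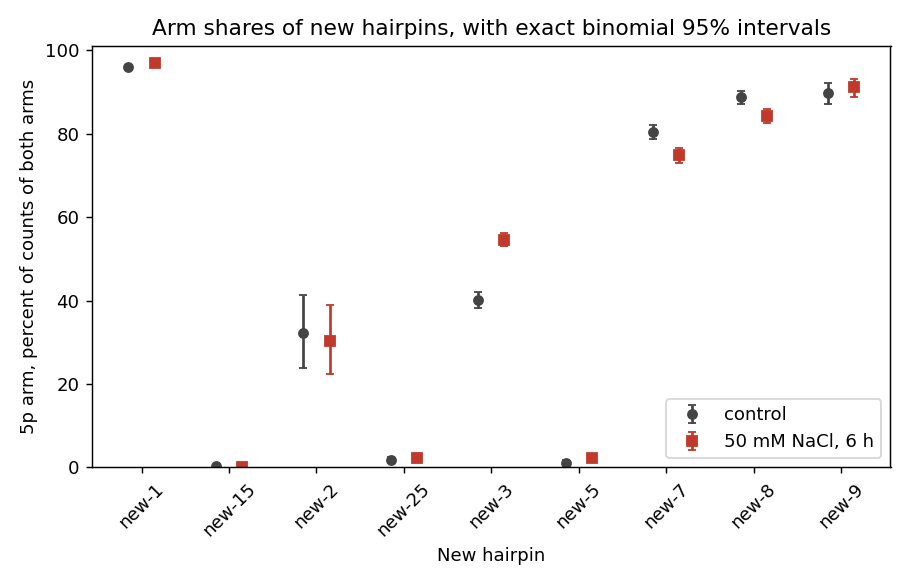
Share of the 5p arm in the counts of both arms, in percent, for the 9 new hairpins with both arms compared, in the control library (circles) and at 50 mM NaCl for 6 h (squares), with exact binomial 95% intervals. Hairpin 3 shows the widest gap, from 40.1% to 54.5%, and hairpins 2, 5, 9 and 25 overlap.

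The size and first base of the population differed little. Names of 21 nt made up 69.8% of the control counts and 71.9% at 50 mM, and names of 24 nt took 0.189% and 0.188%. Names of 22 nt went from 2.29% to 2.70%. Names that start with U took 78.2% and 77.1%, and those that start with A, to which new-1-5p belongs, took 6.02% and 7.35%. Within the new names, those of 20 nt took 1.72% and 1.02%, and new-36 belongs to them.

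At the lower edge, the last names kept by the count minimum were miR398d and miR398e, with 20 and 9 counts, and miR159p, with 18 and 21. The nearest names left out were miR162e, with 13 and 19, new-12-3p, with 18 and 6, and miR319i, with 16 and 17. Of the 145 names not compared, 24 were listed in the control library only and 14 at 50 mM only. The most counted of the first kind was new-20, with 6 counts, and of the second miR159u and miR827d, with 5 each.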

How the data were processed

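Small RNA of roots was made into libraries with an NEBNext kit for Illumina, per the labels' protocols. Each table holds read counts per miRNA name, deposited by the authors as whole numbers. The deposited TPM column equals, for all 293 and 283 names, the count per 1000000 of the table's own total, without length correction. Trimming, alignment, mismatches, reference and the handling of strands were not given in the sources used here, nor was the sequencing depth, since the totals are sums over names. 1 read is worth 1.96 RPM in the control library and 2.22 at 50 mM.

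Tables were joined by name and sequence, and a name not listed counted as 0. Only in the alternative with no count minimum was it set to 3 counts. miR171g, given to 2 sequences, stayed as 2. Intervals of ratios are conditional binomial (Clopper-Pearson), those of shares binomial. A family sums the names of its number and takes the interval width of its most counted name. Near-equal names were joined when they overlapped by 16 nt or more on the same or the opposite strand, with at most 2 mismatches, and counts within 5% or 3 reads. Ratios after joining use the totals of the joined names, so names that were not joined also change. Likeness of new to numbered names allowed at most 4 mismatches and no gaps. Python 3.11.15, scipy 1.17.1 and, for TMM factors, edgeR 4.0.16 were used.

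The members, the lists of families and the naming rule were chosen with earlier results of these data known. The rule takes called names, up to 10 names per direction past 1.5-fold, the 10 most counted control names, the leading name of each listed family, arms of new hairpins, names at the count minimum and those of 1 library. The lists are auxin-linked, phase-change, growth transcription-factor, nutrient, copper, small RNA pathway, disease-resistance and flavonoid MYB families. Alternatives changed the scaling, the joining, the count minimum and the size of the ratio.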

Additional observations from a re-analysis of the deposited data

How the results depend on the processing

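The 3 higher and 5 lower names were called under TMM factors, median-of-ratios factors, totals without miR159a and near-equal names joined alike. With at least 10 counts 6 names were higher, the added ones being miR399h, miR399j and miR399m. With no count minimum, and a name not listed set to 3 counts, 8 were. Had such names stayed at 0, miR159u and miR827d, with 0 and 5 counts each, would also have been called higher. By the same change new-20, with 6 and 0, would have been called lower. With at least 50 counts 2 were lower. Past 1.5-fold 14 were higher and 12 lower, and past 3-fold 1 was higher and 2 lower. Without miR3711, miR5072 and miR8175, an alternative chosen after seeing the data, 2 were lower. The median log2 ratio of all names, −0.08, ran from −0.13 (TMM) to −0.03 (at least 50 counts). List medians mostly kept within counting error. With 1 value per family the auxin-linked list had −0.048 in place of −0.19, the growth transcription-factor list 0.0087 in place of −0.15, and the flavonoid MYB list 0.31 in place of −0.03. With near-equal names joined the disease-resistance list had 0.15 in place of 0.21. Its only name, miR482, kept its counts, and only the totals changed, to 304474 and 279926. No list other than the growth transcription-factor, phase-change and MYB lists changed sign, and the cause was not tested. The nutrient list stayed at 0.81 without miR399c.

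Of 28 families, 25 stayed within their interval under TMM factors, 28 under median-of-ratios factors, 26 when miR159a was left out of the totals and 22 after joining. No family whose interval excluded 1 turned direction in these or with its most counted name alone. miR159 lay at 0.971 with TMM factors, so its direction is not settled. The intervals of miR160 and miR171 included 1 after joining, which also changed the totals. Those of miR156 and miR159 included 1 before joining but not after, at 0.793 to 0.973 for miR156 and 1.016 to 1.036 for miR159. No paired analysis was possible because each condition has 1 library. Depth limits names under 50 counts most, where a 2-fold difference can lie within the counting interval.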
